A study of Mus musculus with 5 samples.

Results

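The lysosome is the acidic compartment in which cells digest proteins, sugars and lipids, and autophagy is the route that delivers the cell's own contents to it inside double-membrane vesicles. Soluble hydrolases do the digestion, a proton pump keeps the lumen acid, glycosylated membrane proteins line the wall, and the transcription factors TFEB and TFE3 can raise many of these genes together when they enter the nucleus. Glioma cells use the same machinery to recycle nutrients and to secrete proteases. The account below covers 40 genes of this system in GL261 cells, a mouse glioma line, chosen by gene symbol from a list of 10 proteases, 6 glycosidases, 7 genes of lipid breakdown and export, 5 membrane proteins, 3 proton pump subunits, 2 transcription factors and 7 autophagy genes. All 40 were found among the 55483 genes with a transcript in the deposited files, and 38 of them were among the 13876 genes with a mean of at least 1 TPM (a level scaled to transcript length and to the size of the library), which were tested.

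The cells received sodium propionate, the salt of a short-chain fatty acid, or sodium chloride, the control salt, and RNA was taken 24 h later. The labels give 1 uM for both salts, a unit that could not be checked. The libraries were 2 of sodium propionate (replicates 2 and 3) and 3 of sodium chloride (replicates 1, 2 and 3), and propionate replicate 1 was not analysed here. The question named in the labels is which transcripts change after propionate.

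Aligned sequence behind the values came to between 7.19 and 7.63 Gb per library, so that 1 TPM stood for a mean of 4.73 to 4.99 reads over each base of a transcript. Propionate replicate 3 stood apart from propionate replicate 2 in its make-up: protein-coding genes held 45.2% and 50.3% of TPM in propionate replicates 2 and 3, against 49.1%, 47.7% and 46.7% in chloride replicates 1, 2 and 3. Of 10 glial and glioma markers 8 reached 1 TPM, and Slc1a3 and Olig2 did not. Of 12 myeloid markers 2 reached 1 TPM, and Itgam and Tyrobp were listed at 0 in every library. Separate cultures are not mentioned in the labels: p-values measure the spread among these 5 libraries only, and that spread may be technical. In RNA from whole cultures, fewer cells of a kind and less RNA per cell cannot be told apart.

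After propionate, 2 of the 38 tested genes passed the threshold, both of them cysteine proteases and both higher: Ctsh (cathepsin H, an aminopeptidase) and Lgmn (legumain, which cuts after asparagine and processes other lysosomal proteases). None passed it as lower. The threshold was a Benjamini-Hochberg adjusted p under 0.05 over all tested genes in limma, and by it 1.31% of all tested genes were higher and 0.504% lower. The 38 genes had a median log2 change of 0.11 (propionate minus chloride; values were transformed as log2(TPM + 1); range -0.32 to 0.85), and 29 of them were above 0. All tested genes had a median of -0.03, with 6177 above 0, which is 44.5%. At an unadjusted p under 0.05, 8 of the 38 were higher and 1 was lower, where 7.93% of all tested genes were higher and 8.91% lower. In 13 genes both propionate libraries lay above all 3 chloride libraries and in 3 genes below them, where all tested genes gave 14.8% above and 19.7% below.

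**Figure D1:**
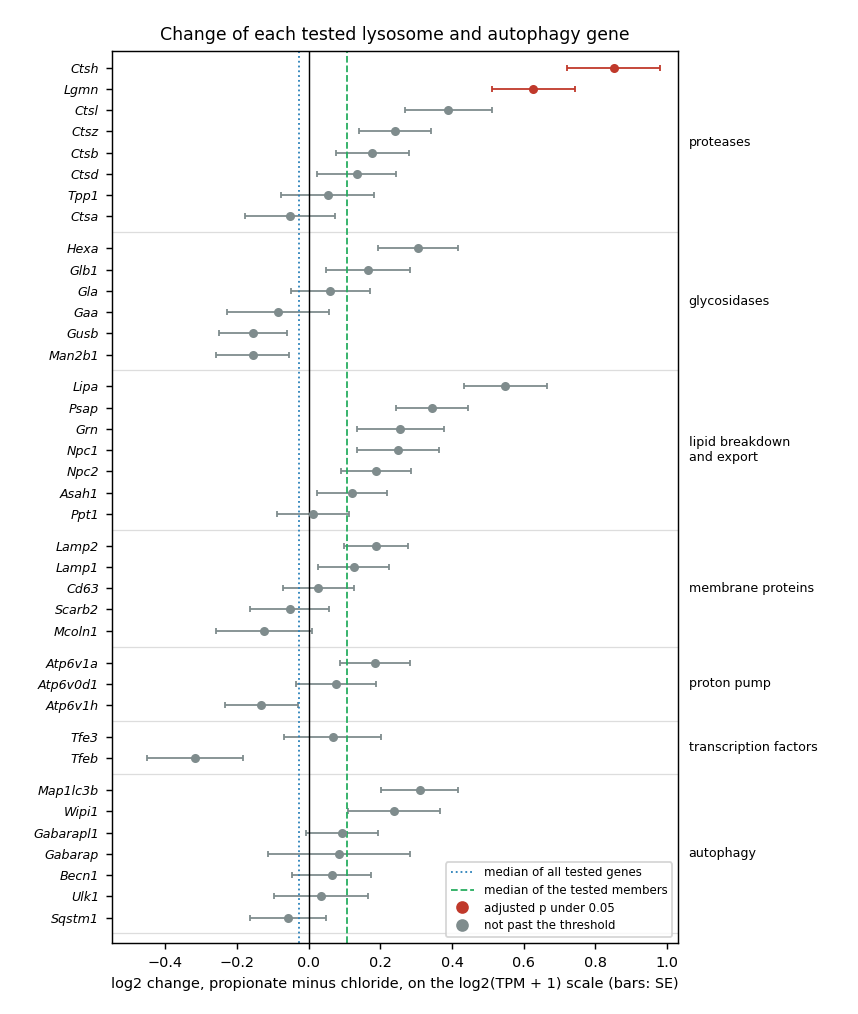
Each row is 1 of the 38 tested genes, grouped by role, and the point is its log2 change (propionate minus chloride, from log2(TPM + 1)) with its SE. Red points passed an adjusted p under 0.05 (Ctsh at 0.85 and Lgmn at 0.63); the dashed line is the median of the 38 genes (0.11) and the dotted line that of all tested genes (-0.03).

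These counts moved with the scaling, the filter on low levels and the transcripts summed. With TPM rescaled over protein-coding genes 7 members were higher (Ctsh, Lgmn, Lipa, Psap, Ctsz, Hexa and Map1lc3b), where 5.26% of all tested genes were, and with median-of-ratios scaling 4 were (Ctsh, Lgmn, Lipa and Psap), where 2.42% were. With sums over reference transcripts only no member was higher, where 0.0375% of all tested genes were, with no minimum level none was, where 0.00656% were, and without a variance trend only Ctsh was, where 1.04% were. The log2 change of Ctsh, which has no assembled transcript, was 0.85 in each of those 3 fits, and that of Lgmn was 0.58 with reference transcripts only and 0.63 in the other two.

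TFEB and TFE3 are sister transcription factors that bind the letters CACGTG, often within the longer palindrome TCACGTGA, near the starts of lysosomal genes. Tfeb had 4.56 and 5.30 TPM in propionate replicates 2 and 3, against 5.98, 5.997 and 7.23 TPM in chloride replicates 1, 2 and 3. Both propionate libraries lay below all chloride libraries. The means were 4.93 ± 0.526 TPM (SD, n = 2) and 6.40 ± 0.718 TPM (SD, n = 3), a log2 change of -0.32 ± 0.13 (SE) with a limma adjusted p of 0.280. Tfe3 had 8.80 and 9.63 TPM in the propionate libraries and 10.03, 8.88 and 7.49 TPM in the chloride libraries, and the groups overlapped. Its log2 change was 0.07 ± 0.14 with a limma adjusted p of 0.857. Its transcripts Tfe3-206 and Tfe3-201, chosen after their values were seen, are annotated over the same gene. Tfe3-206 held 53.9% and 61.6% of the gene's TPM in the propionate libraries, against 25.3%, 17.8% and 49.8% in the chloride libraries. Tfe3-201 held 28.6% and 12.1% in the propionate libraries, against 54.2%, 62.5% and 28.7% in the chloride libraries. The groups did not overlap in either share, and chloride replicate 3 lay nearest to the propionate libraries in both, close to propionate replicate 2 in the share of Tfe3-201.

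The promoters of the group were searched for these letters because TFEB and TFE3 are the regulators on the list. RefSeq (GRCm38.p6) gave a promoter of 300 bases, 250 before to 50 after the start, for 34 of the 40 genes; Ctsb, Ctsh, Asah1, Npc1, Atp6v1h and Becn1 were not searched. CACGTG, which reads the same on both strands, stood in 11 of the 34 (32.4%) and in 2187 of 27025 genes in the RefSeq table (8.09%). TCACGTGA, which contains it and is also a palindrome, stood in 6 of the 34 (17.6%) and in 304 genes of the table (1.12%). Its 10-letter extension, with G before and C after, stood in none of the 34 and in 100 genes of the table (0.370%). The genes of the table were not matched to the 34 by level, gene type or base content, so these shares compare unlike sets. The letters were also already known from the starts of lysosomal genes, so a higher share among the 34 is not an independent result. The 7 lines below are windows around a match, printed 5′ to 3′ on the gene's strand with the matched letters in capitals: Lgmn, which passed the threshold, 5 of the 6 genes with the longer palindrome, and the stretch before Lamp1, which holds 4 copies within 69 bases.
Lgmn, chr12:102439119-102439158, minus strand: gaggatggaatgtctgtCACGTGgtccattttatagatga
Ctsd, chr7:142387903-142387942, minus strand: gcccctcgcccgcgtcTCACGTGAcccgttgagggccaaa
Gla, chrX:134601177-134601216, minus strand: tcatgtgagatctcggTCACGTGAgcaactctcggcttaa
Atp6v0d1, chr8:105566045-105566084, minus strand: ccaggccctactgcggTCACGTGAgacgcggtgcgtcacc
Atp6v1a, chr16:44139368-44139407, minus strand: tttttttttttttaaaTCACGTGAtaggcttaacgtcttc
Mcoln1, chr8:3500457-3500496, plus strand: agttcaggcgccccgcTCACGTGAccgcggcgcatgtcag
Lamp1, chr8:13159083-13159151, plus strand: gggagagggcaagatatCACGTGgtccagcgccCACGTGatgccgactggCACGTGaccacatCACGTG
The Lgmn match lies at position -49 from a RefSeq start that is inside the gene, 672 bases downstream of the 5′ end of its most abundant transcript, Lgmn-201. The Ctsd match lies at position -98 from the RefSeq start and 113 bases downstream of the 5′ end of the most abundant Ctsd transcript, and the Mcoln1 match at position -45 and 17 bases downstream. The Atp6v1a match lies at position -131 from the RefSeq start and at -85 from its most abundant transcript. No window is printed for Ctsa, the remaining gene with the longer palindrome. Its matches lie 860 and 877 bases downstream of the 5′ end of its most abundant transcript. The 11 genes with CACGTG had a median log2 change of 0.13 (range -0.12 to 0.63), with 8 above 0. The 21 tested genes whose promoter lacked it had a median of 0.09, with 16 above 0. For the longer palindrome the order was the other way: the 6 genes that hold TCACGTGA had a median of 0.068, with 4 above 0, and the 26 tested genes without it had a median of 0.11, with 20 above 0. A match describes these letters only, and nothing in these data measures binding.

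Lysosomal proteases degrade proteins taken up or delivered by autophagy, and tumour cells also release some of them. Ctsh (ENSMUSG00000032359, chr9:90054152-90076089, plus strand, GRCm38) had 9.56 and 11.7 TPM in propionate replicates 2 and 3, against 5.41, 5.05 and 5.84 TPM in chloride replicates 1, 2 and 3. Both propionate libraries lay above all chloride libraries. The means were 10.6 ± 1.52 TPM (SD, n = 2) and 5.43 ± 0.396 TPM (SD, n = 3), a log2 change of 0.85 ± 0.13 (SE), which is 1.80-fold on the log2(TPM + 1) scale, with a limma adjusted p of 0.0200. The transcript Ctsh-201 held between 92.5% and 99.3% of the gene's TPM in the 5 libraries, and no assembled transcript was counted in it. The call was lost without propionate replicate 2 (adjusted p = 0.0534), propionate replicate 3 (0.142) or chloride replicate 1 (0.0648) and kept without chloride replicate 2 or 3; the log2 change stayed between 0.72 and 0.98 with any of the 5 left out.

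Lgmn (ENSMUSG00000021190, chr12:102394084-102439813, minus strand, GRCm38) had 64.5 and 77.7 TPM in the propionate libraries, against 49.9, 44.6 and 42.3 TPM in the chloride libraries. Again both propionate libraries were above all chloride libraries. The means were 71.1 ± 9.39 TPM (SD, n = 2) and 45.6 ± 3.90 TPM (SD, n = 3), a log2 change of 0.63 ± 0.12, or 1.54-fold, with a limma adjusted p of 0.0400. The call was lost without any 1 of the 5 libraries: the adjusted p was 0.0600 without propionate replicate 2, 0.163 without propionate replicate 3, and 0.0710, 0.0983 and 0.0853 without chloride replicates 1, 2 and 3. The log2 change stayed between 0.49 and 0.76 in these fits.

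Ctsh and Lgmn are abundant in macrophages, so the myeloid markers stand beside them. The summed level of the 12 markers was 18.9 to 21.9 TPM in the propionate libraries and 12.8 to 14.6 TPM in the chloride libraries. Most of that sum was Lyz2, the macrophage lysozyme, with 15.6 and 18.1 TPM in the propionate libraries and 11.9, 10.4 and 11.6 TPM in the chloride libraries (log2 change 0.54, limma adjusted p = 0.0586). Itgam and Tyrobp were at 0 in all 5 libraries, and 7 others (Ptprc, Aif1, Csf1r, Cx3cr1, P2ry12, Adgre1 and Fcer1g) did not exceed 0.306 TPM in any library. Of these 7, Csf1r had 0.276 and 0.0634 TPM in the propionate libraries and 0.303, 0.286 and 0.306 TPM in the chloride libraries. Its groups did not overlap, with propionate lower, narrowly so in propionate replicate 2. Tmem119, a microglial marker, had 0.617 and 1.35 TPM in the propionate libraries and 0.137, 0.0921 and 0.113 TPM in the chloride libraries, without overlap, and Cd14 overlapped between the groups. The 8 endothelial and pericyte markers also summed to more after propionate. Their sum was 22.5 to 24.2 TPM in the propionate libraries and 17.4 to 19.1 TPM in the chloride libraries. Cspg4 made up most of it, with 20.1 and 22.1 TPM in the propionate libraries and 18.1, 16.6 and 17.8 TPM in the chloride libraries. Only Cspg4 and Pdgfrb averaged at least 1 TPM, and Cdh5 and Kdr were at 0 throughout. Pdgfrb had 2.29 and 1.91 TPM in the propionate libraries and 1.01, 0.652 and 0.626 TPM in the chloride libraries. Its log2 change was 0.82 with a limma adjusted p of 0.0864. No lymphoid marker averaged at least 1 TPM, and that list summed to more after propionate (0.806 to 1.42 against 0.0720 to 0.544 TPM). The mature oligodendrocyte and neuron list overlapped (999 to 1165 against 981 to 1202 TPM). Of the glial markers, Pdgfra (log2 change 0.89, limma adjusted p = 0.00714) and Fabp7 (log2 change 0.77, limma adjusted p = 0.0195) were called higher. Gfap (log2 change 0.34, limma adjusted p = 0.420) and the untested Olig2 also lay above all chloride libraries. S100b lay below them (log2 change -0.36, limma adjusted p = 0.0934), and the rest overlapped. The summed level of the glial list was 6467 to 7256 TPM in the propionate libraries and 5851 to 7461 TPM in the chloride libraries. That sum was mostly Vim, at 6098 and 6841 TPM in the propionate libraries and 6897, 7073 and 5472 TPM in the chloride libraries. The part of any of these markers' cell types in the Ctsh and Lgmn results was not tested.

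The abundant cathepsins had smaller changes. Ctsb, a cysteine protease, had 97.0 and 109 TPM in the propionate libraries and 98.6, 89.96 and 84.1 TPM in the chloride libraries. The groups overlapped, since propionate replicate 2 lay below chloride replicate 1, and the log2 change was 0.18 ± 0.10 with a limma adjusted p of 0.425. Ctsd, the aspartic protease, had 237 and 300.1 TPM in the propionate libraries and 249, 249 and 232 TPM in the chloride libraries. Propionate replicate 3 was the highest library and propionate replicate 2 lay inside the chloride range, with a log2 change of 0.13 ± 0.11 and a limma adjusted p of 0.595. Ctsl, named after its values were seen, was the most abundant protease, at 352 and 358 TPM in the propionate libraries and 307, 230 and 281 TPM in the chloride libraries. Both propionate libraries were above all chloride libraries, and the log2 change of 0.39 ± 0.12 had a limma adjusted p of 0.161. Ctsz, which trims proteins from their carboxyl end, had a log2 change of 0.24 with groups that did not overlap. Tpp1, which removes tripeptides, and Ctsa, a carboxypeptidase that also stabilises other lysosomal enzymes, had log2 changes of 0.05 and -0.05 with groups that overlapped. Ctsk and Ctss, cathepsins known from osteoclasts and antigen-presenting cells, averaged 0.568 and 0.167 TPM over the 5 libraries and were not tested. Over the 8 tested proteases, 7 were above 0 and the median log2 change was 0.21.

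**Figure D2:**
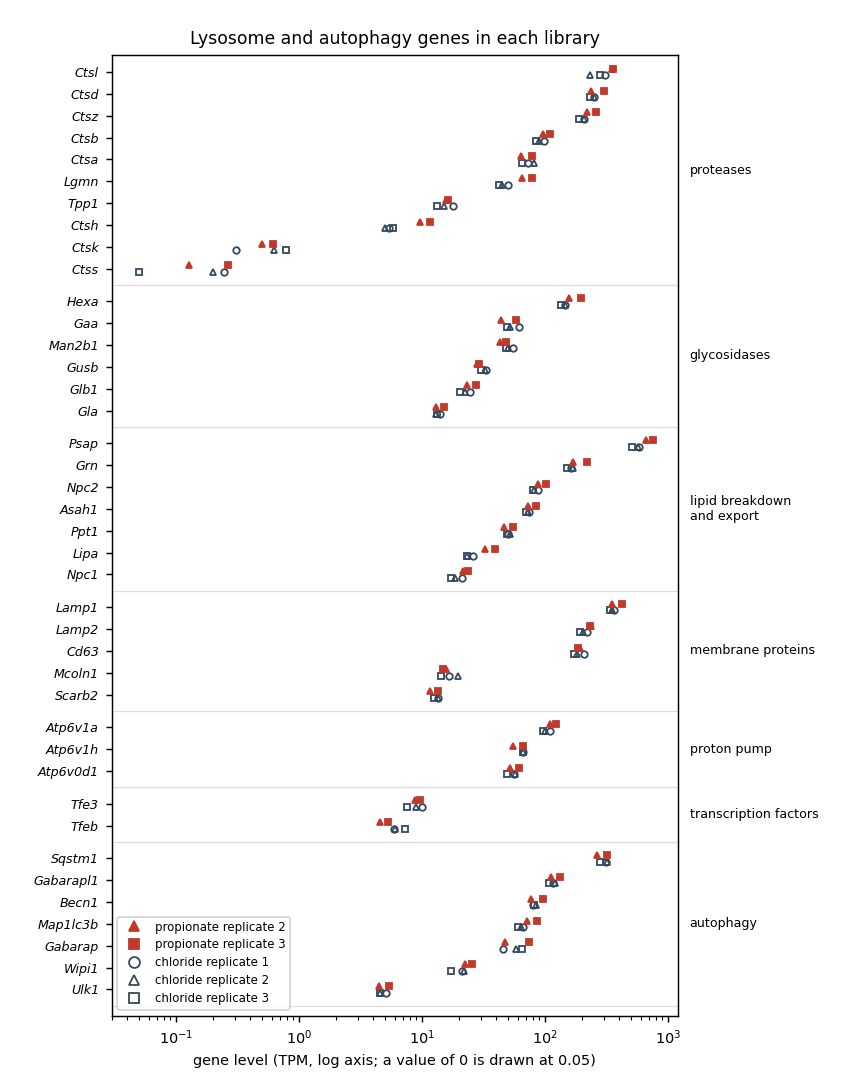
Level of each of the 40 genes in TPM on a log axis, grouped by role, with filled red symbols for propionate replicates 2 and 3 and open dark symbols for chloride replicates 1, 2 and 3. Levels span mean values of 616 TPM (Psap) to 0.167 TPM (Ctss). Of the 38 tested genes, 13 have both red symbols above all dark ones, Ctsh, Lgmn and Lipa among them. In 3 (Gusb, Man2b1 and Tfeb) the red symbols lie below, and in 22 the groups overlap.

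Glycosidases remove sugars from glycolipids, glycoproteins and glycogen, and none of the 6 passed the threshold. Hexa, the alpha subunit of the enzyme that breaks down the ganglioside GM2, had 156 and 197 TPM in the propionate libraries and 146, 145 and 135 TPM in the chloride libraries. The groups did not overlap, and propionate replicate 3 was well above propionate replicate 2. Its log2 change was 0.30 ± 0.11, with a limma adjusted p of 0.220. Gusb, beta-glucuronidase, had 27.9 and 29.2 TPM in the propionate libraries and 33.3, 32.3 and 30.2 TPM in the chloride libraries. Here both propionate libraries were below all chloride libraries, with a log2 change of -0.15 ± 0.09 and a limma adjusted p of 0.452. The alpha-mannosidase Man2b1 had a log2 change of -0.16 (-0.44 with reference transcripts only), also with both propionate libraries below. Glb1 (beta-galactosidase), Gla (alpha-galactosidase A) and Gaa (the glycogen-degrading alpha-glucosidase) had log2 changes of 0.17, 0.06 and -0.08 with groups that overlapped. The 6 changes had a median of -0.01, with 3 above 0.

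The 7 genes listed under lipid breakdown and export, a loose grouping, all had log2 changes above 0 (range 0.01 to 0.55, median 0.25). None passed the threshold. Under the alternatives the sign changed in 2 fits for Ppt1 and in 1 for Npc1. Lipa, the acid lipase that frees cholesterol and fatty acids from lipoprotein lipids (chr19:34492318-34527474, minus strand), had 32.2 and 39.1 TPM in the propionate libraries. It had 25.8, 23.1 and 23.0 TPM in the chloride libraries, all of them below both propionate libraries. The means were 35.7 ± 4.87 TPM (SD, n = 2) and 24.0 ± 1.56 TPM (SD, n = 3), a log2 change of 0.55 ± 0.12 with a limma adjusted p of 0.0572. Over all the alternatives its log2 change lay between 0.41 and 0.69 and its adjusted p between 0.00721 and 0.217.

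Psap, the precursor of the saposins that present sphingolipids to their hydrolases (chr10:60277627-60302597, plus strand), was the most abundant of the 40 genes. It had 656 and 756 TPM in the propionate libraries, against 585, 573 and 509 TPM in the chloride libraries, with no overlap between the groups. The log2 change was 0.34 ± 0.10 with a limma adjusted p of 0.131. Its transcript Psap-202 held 82.5% and 85.7% of the gene's TPM in the propionate libraries and 90.6%, 51.4% and 90.02% in the chloride libraries. In chloride replicate 2, transcripts assembled from the reads held 47.6% of it, so the gene sum and not the transcript is the value compared. Npc1 and Npc2, which hand cholesterol out of the lysosome, had log2 changes of 0.25 and 0.19 with both propionate libraries above all chloride libraries. Grn (progranulin), Asah1 (acid ceramidase) and Ppt1 (which removes palmitate from proteins) had log2 changes of 0.26, 0.12 and 0.01 with groups that overlapped.

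The lysosomal wall is coated by LAMP1 and LAMP2. Lamp2 had 235 and 233 TPM in the propionate libraries and 220, 202 and 193 TPM in the chloride libraries. Both propionate libraries were above all chloride libraries, but the log2 change was small, 0.19 ± 0.09, with a limma adjusted p of 0.333. Lamp1 had 348 and 421 TPM in the propionate libraries and 360, 353 and 339 TPM in the chloride libraries. Propionate replicate 2 lay inside the chloride range, and the log2 change was 0.13 ± 0.10 with a limma adjusted p of 0.574; with reference transcripts only it was 0.46, with an adjusted p of 0.302. Cd63 (a tetraspanin of late endosomes), Scarb2 (the carrier of glucocerebrosidase to the lysosome) and Mcoln1 (a calcium channel of the membrane) had log2 changes of 0.03, -0.05 and -0.12, all with groups that overlapped. In Cd63, a split chosen after it was seen, assembled transcripts held 52.8% of the TPM in chloride replicate 1 and 4.17% in chloride replicate 2.

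Lamp2 is spliced into forms that differ in the last exon, which encodes the membrane-spanning and cytosolic end of the protein. The 3 full-length transcripts in the annotation have 9 exons each, of which 8 are the same. Lamp2-202, which ends in the exon at chrX:38419507-38421851 (GRCm38, minus strand), had 165 and 162 TPM in the propionate libraries and 144, 127 and 123 TPM in the chloride libraries. Lamp2-201, which ends at chrX:38405062-38405571, had 63.5 and 55.9 TPM in the propionate libraries and 67.9, 68.3 and 61.4 TPM in the chloride libraries. Lamp2-202 made up 70.3% and 69.7% of the gene in the propionate libraries and 65.5%, 62.8% and 63.9% in the chloride libraries, so its share was higher in both propionate libraries than in any chloride library. These transcript values were chosen after they were seen and carry no test.

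**Figure D3:**
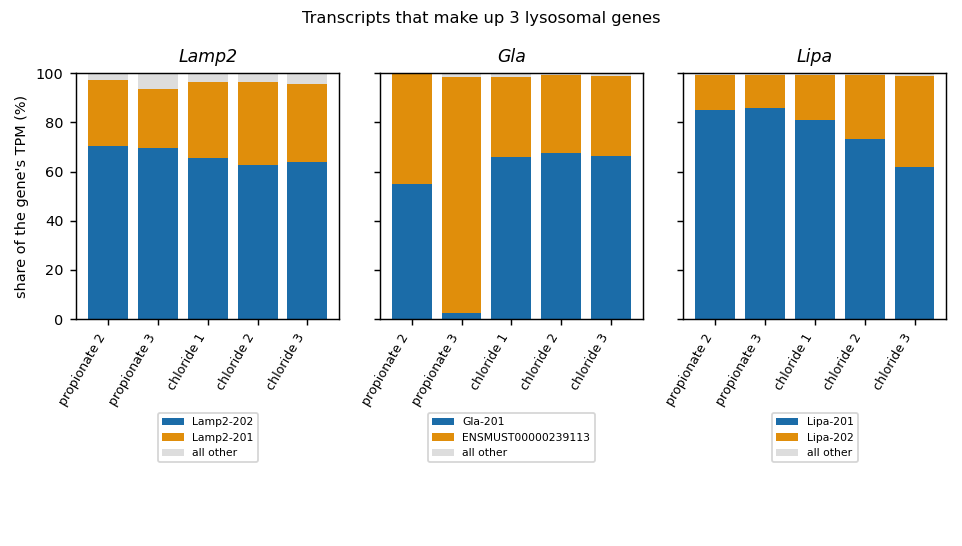
Share of the gene's TPM (%) held by the 2 leading reference transcripts of Lamp2, Gla and Lipa in each library, with all other transcripts in grey. Gla-201 held 55.0% and 2.45% in propionate replicates 2 and 3 and 65.9%, 67.4% and 66.5% in the chloride libraries; Lipa-201 held 85.1% and 85.8% in the propionate libraries and 80.8%, 73.4% and 61.8% in the chloride libraries.

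The transcript splits of Gla and Lipa were also chosen after their values were seen. In Gla the split was the least stable of the 3 genes plotted by share, while the gene sum stayed between 12.9 and 15.2 TPM in the 5 libraries. Its second transcript, ENSMUST00000239113, held 45.0% and 96.2% in the propionate libraries and 32.8%, 32.0% and 32.3% in the chloride libraries. Both propionate libraries lay outside the chloride range in the shares of Gla-201 and of this transcript, propionate replicate 3 by far the most. In Lipa the share of the main transcript, Lipa-201, did not overlap between the groups and varied most among the chloride libraries. Over the 40 genes, 14 had a leading transcript with over 90% of the gene's TPM in every library, and 18 had at least 1 transcript assembled from the reads.

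The proton pump has a membrane sector, V0, and a catalytic sector, V1, and none of its 3 listed subunits passed the threshold. Atp6v1a, the catalytic subunit, had 110.3 and 122 TPM in the propionate libraries and 109.8, 101 and 96.2 TPM in the chloride libraries. The propionate libraries lay above the chloride libraries, narrowly at the nearest pair, and the log2 change of 0.18 ± 0.10 had a limma adjusted p of 0.383. Atp6v1h, a regulatory V1 subunit, had 54.9 and 66.2 TPM in the propionate libraries and 66.5, 66.4 and 65.7 TPM in the chloride libraries. Only propionate replicate 2 was low, so the groups overlapped, with a log2 change of -0.13 ± 0.10 and a limma adjusted p of 0.566. With reference transcripts only the log2 changes were 0.58 for Atp6v1a and 0.20 for Atp6v1h, with limma adjusted p values of 0.209 and 0.570. Atp6v0d1, of the V0 sector, had a log2 change of 0.08 with groups that overlapped.

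None of the 7 autophagy genes passed the threshold. Map1lc3b encodes LC3B, the protein joined to lipid on autophagosome membranes, and had 71.3 and 86.8 TPM in the propionate libraries and 66.0, 63.8 and 60.2 TPM in the chloride libraries. Both propionate libraries were above all chloride libraries, with a log2 change of 0.31 ± 0.11 and a limma adjusted p of 0.198. Sqstm1 encodes p62, which carries ubiquitin-tagged cargo to LC3 and is itself degraded by autophagy. It had 266 and 318 TPM in the propionate libraries and 312, 318 and 279 TPM in the chloride libraries. The groups overlapped, and the log2 change was -0.06 ± 0.11 with a limma adjusted p of 0.839. Wipi1, which binds the lipid mark of forming autophagosomes, had 22.4 and 25.6 TPM in the propionate libraries and 21.2, 22.0 and 17.4 TPM in the chloride libraries. Its groups did not overlap either, with a log2 change of 0.24 ± 0.13 and a limma adjusted p of 0.391. The LC3 relatives Gabarap and Gabarapl1, the initiating kinase Ulk1 and Becn1, a scaffold of the lipid kinase complex, had log2 changes between 0.03 and 0.09, all with groups that overlapped. Gabarap, named after its values were seen for having the widest spread of these, was at 47.6 and 73.6 TPM in the propionate libraries and 45.8, 58.5 and 64.7 TPM in the chloride libraries.

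The 2 propionate libraries did not carry these changes equally. Measured from the mean of the 3 chloride libraries, the median log2 deviation of the 38 genes was 0.01 in propionate replicate 2, with 20 genes above 0, and 0.23 in propionate replicate 3, with 33 above 0. The chloride replicates 1, 2 and 3 had medians of 0.06, 0.01 and -0.08, with 31, 22 and 5 genes above 0. Over all tested genes the median deviation was -0.08 and 0.03 in propionate replicates 2 and 3 and 0.04, 0.00 and -0.04 in chloride replicates 1, 2 and 3. Against that background the 38 genes were higher by 0.09 and 0.20 in propionate replicates 2 and 3. They differed by 0.02, 0.01 and -0.04 in chloride replicates 1, 2 and 3. The subtracted mean comes from the same 3 chloride libraries, which holds their values near 0, and the propionate libraries are not in it. With TPM over protein-coding genes, where 39 members were tested, their medians were 0.09 and 0.16 in propionate replicates 2 and 3 and 0.02, 0.02 and -0.05 in chloride replicates 1, 2 and 3. The summed level of the 40 genes was 4087 and 4733 TPM in the propionate libraries and 4060, 3907 and 3679 TPM in the chloride libraries.

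**Figure D4:**
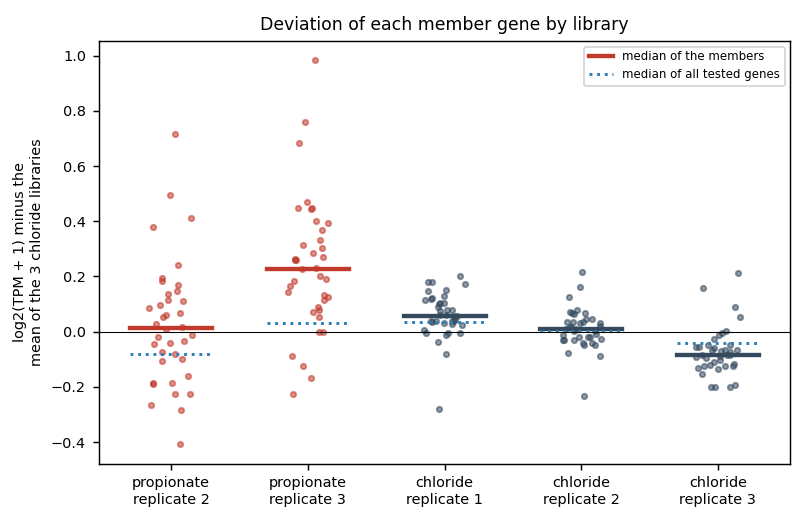
Each point is 1 of the 38 tested genes in 1 library, as log2(TPM + 1) minus the mean of the 3 chloride libraries; thick bars are medians of the 38 genes and dotted bars medians of all tested genes. Thick bars lie at 0.01 and 0.23 in propionate replicates 2 and 3 and at 0.06, 0.01 and -0.08 in chloride replicates 1, 2 and 3.

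A wider set of 140 lysosome and autophagy genes outside the 40 was read from the same fit. Of these 129 were tested, 1 was called higher (0.775%, where 1.31% of all tested genes were) and none lower. Their median log2 change was 0.04 and 76 of them, 58.9%, were above 0, where 44.5% of all tested genes were. At an unadjusted p under 0.05, 6 were higher and 6 lower, which is 4.65% each, where all tested genes gave 7.93% higher and 8.91% lower. The gene called was Rragd, which encodes a small GTPase that recruits the growth kinase mTORC1 to the lysosome and is known as a target of TFEB. It had 6.26 and 7.77 TPM in the propionate libraries and 3.85, 3.21 and 3.50 TPM in the chloride libraries. Both propionate libraries were above all chloride libraries, the means being 7.01 ± 1.07 TPM (SD, n = 2) and 3.52 ± 0.319 TPM (SD, n = 3). The log2 change was 0.82 ± 0.14 with a limma adjusted p of 0.0313. Without any 1 of the libraries the call was lost, with adjusted p values of 0.0758 and 0.171 without propionate replicates 2 and 3 and 0.0668, 0.0689 and 0.0517 without chloride replicates 1, 2 and 3. No other of the 25 tested genes of lysosomal growth control passed the threshold, and that list had a median log2 change of -0.03. Nprl3, which encodes a subunit of a complex that restrains mTORC1 and was named after its values were seen, had the next smallest p in that list. Both propionate libraries lay below all chloride libraries, with a log2 change of -0.32 ± 0.10 and a limma adjusted p of 0.164.

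Among 30 tested further hydrolases and their helpers, 21 were above 0 and the median log2 change was 0.08. Gm2a, the activator that lifts GM2 out of the membrane for the Hexa enzyme, had 47.4 and 55.8 TPM in the propionate libraries and 37.9, 35.7 and 31.8 TPM in the chloride libraries. The groups did not overlap, and the log2 change of 0.54 ± 0.12 had a limma adjusted p of 0.0592. Fuca1, a fucosidase, had a log2 change of 0.20 with an adjusted p of 0.359 in limma.

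Among 20 tested membrane proteins and transporters the median log2 change was 0.08. Cd68, a membrane glycoprotein best known from macrophages, had 10.1 and 12.1 TPM in the propionate libraries and 7.59, 7.03 and 6.22 TPM in the chloride libraries. There was no overlap between the groups, with a log2 change of 0.61 ± 0.13 and a limma adjusted p of 0.0593. Laptm4b, a membrane protein of late endosomes and lysosomes, had a log2 change of 0.36 with an adjusted p of 0.124 in limma. The 15 tested further pump subunits had a median log2 change of 0.04. The 2 with the smallest p were both below 0: Atp6v0a2, a V0 subunit, at -0.34 and Atp6ap1, an accessory subunit, at -0.31, with adjusted p values of 0.135 and 0.244 in limma. The 39 further autophagy genes had a median log2 change of -0.02, with 19 above 0. Tecpr1, which helps to join autophagosomes to lysosomes, had a log2 change of 0.56 with a limma adjusted p of 0.0897. Fundc1, a receptor for the removal of mitochondria, had a log2 change of -0.33 with a limma adjusted p of 0.152, and both propionate libraries lay below all chloride libraries.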

How the data were processed

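RNA of GL261 cells was made into libraries with a stranded total RNA kit, per the labels' protocols, and the submitters' processing notes name fastp, HISAT2, StringTie and mm10. Per the file headers, StringTie 2.1.1 wrote the TPM, FPKM and coverage of each transcript of a merged annotation, without a strand option. Reads of overlapping antisense genes may therefore be mixed in these values. The authors deposited these values and no read counts are used here.

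Each gene's TPM was summed over its Ensembl transcripts, joined through GENCODE M21 (GRCm38), and over assembled transcripts of the same locus and strand that overlap its exons. Of 15415 assembled transcripts 12224 were counted this way, 1540 of which overlap more than 1 gene. Where libraries split a gene differently between reference and assembled transcripts, sums over reference transcripts move and the full sum does not follow that split. TPM sums to 1000000 over all RNA classes in each library, so values depend on the share of abundant non-coding RNA.

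Genes with a mean of at least 1 TPM were tested on log2(TPM + 1) with limma 3.58.1 in R 4.3.3 (eBayes with a trend), two-sided, with treatment as the only term and Benjamini-Hochberg adjustment over all 13876 genes; this scale understates changes of low genes. The code was tested on simulated data. Library pairs within a group had an SD of log2 differences of 0.321 to 0.339, and no pair was identical. The members and lists were chosen with earlier results of these data known. Named genes are the members past the threshold, the 2 of each role with the smallest p, Tfeb, Tfe3, Sqstm1, Map1lc3b, Lamp1, Ctsb and Ctsd, and, from each wider list, up to 3 past the threshold or, failing any, the 2 of smallest p. Other members are given by their log2 change, and transcripts or genes given in more detail are said to be chosen after their values were seen. Alternatives were a pseudocount of 0.1 TPM, a minimum of 5 TPM, no minimum, FPKM, TPM over protein-coding genes, median-of-ratios scaling, reference transcripts only, no variance trend, the replicate number as a block, and each library left out. Promoters are from RefSeq.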

Additional observations from a re-analysis of the deposited data

How the results depend on the processing

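The counts of genes called moved most. Against 182 higher, 70 lower and 2 members higher, no minimum gave 2, 1 and 0, reference transcripts only 5, 6 and 0, median-of-ratios scaling 336, 154 and 4, and TPM over protein-coding genes 629, 405 and 7. Lower genes numbered 118 with FPKM and 30 without a variance trend, which called 1 member, Ctsh. With any 1 library left out, 8 to 126 genes were higher, 7 to 46 lower and 0 to 1 members higher, and the median log2 change of the members was 0.012 to 0.23. Ctsh was called in 10 of 15 settings (adjusted p 0.00621 to 0.161) and Lgmn in 7 (0.00459 to 0.211), and both stayed above 0 in all 15. The cause of these shifts was not tested.

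The replicate number as a block left 2 members called (Ctsh and Lgmn) and 268 higher and 107 lower genes; it takes chloride replicate 1, the lone sample of its number, out of the comparison. Same-numbered libraries had correlations of deviations of -0.222 and -0.196. The deviations of the 2 propionate libraries from their own mean mirror each other, so these correlations cannot tell whether equal numbers mark shared handling. The numbers are not used to pair samples.

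Of 531 member values under 14 alternatives 28 changed sign, in 19 members, none of them called. With reference transcripts only the log2 change was 0.039 for Ctsa, -0.0028 for Npc1, 0.036 for Mcoln1 and 0.20 for Atp6v1h. Without a change of sign it was -0.44 for Man2b1, 0.58 for Atp6v1a, 0.46 for Lamp1, 0.32 for Cd63 and 0.50 for Psap, farther from 0 than with all transcripts summed (-0.16, 0.18, 0.13, 0.03 and 0.34). Under the block it was 0.0015 for Gaa and -0.054 for Gabarap. With 1 library left out the ranges were -0.19 to 0.089 for Ctsa, -0.034 to 0.30 for Ctsd, -0.044 to 0.15 for Tpp1, -0.28 to 0.12 for Gaa, -0.045 to 0.17 for Gla, -0.11 to 0.13 for Ppt1, -0.011 to 0.26 for Lamp1, -0.033 to 0.10 for Cd63, -0.16 to 0.054 for Scarb2, -0.040 to 0.19 for Atp6v0d1, -0.26 to 0.00021 for Atp6v1h, -0.032 to 0.16 for Tfe3, -0.19 to 0.071 for Sqstm1, -0.22 to 0.40 for Gabarap, -0.018 to 0.20 for Gabarapl1, -0.073 to 0.14 for Ulk1 and -0.10 to 0.23 for Becn1. With 2 and 3 libraries, changes of the size seen in most members lie within the spread between libraries.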
